A study of Rattus norvegicus with 12 samples.

Results

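The motile cilium axoneme genes of rat lung are described here in rats that had inhaled crystalline nanocellulose (CNC) and in rats that had breathed air. They were taken as every gene symbol in the deposited count table that starts with Cfap, Dnah, Dnai, Rsph, Tekt or Drc followed by a digit, together with Foxj1, Tppp3, Tubb4b and Fam183b. This rule used no measured value, though it was set with earlier results of these data known. It gave 37 of the 30045 genes in the table, of which 32 passed the filter on low counts and were tested.

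The study compared the lung transcriptome of 6 CNC rats with that of 6 air rats by mRNA sequencing, 1 library per rat. All 12 were male F344/DuCrl (Fischer 344) rats, an inbred strain, bought at 3 months of age and kept under the same housing with 3 rats to a cage. CNC rats breathed crystalline nanocellulose, rod-shaped crystals of plant cellulose, at 20 mg/m3 in a whole-body chamber for 6 hours a day and 5 days a week over 14 exposure days, and air rats breathed air in the same kind of exposure. A piece of whole lung was taken 1 day after the last exposure in both groups. Which rats shared a cage or a chamber is not given in the labels, so cage and exposure cannot be told apart.

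Motile cilia are the beating hairs of multiciliated airway cells, which carry mucus and trapped particles up the bronchi and trachea. Their shaft, the axoneme, is a ring of doublet microtubules around a central pair. Outer and inner dynein arms bend it, radial spokes and the nexin-dynein regulatory complex coordinate the arms, and inner proteins such as tektins stiffen the doublets. The transcription factor Foxj1 switches on the genes for these parts, together with RFX factors, so in a piece of lung their RNA comes largely from airway epithelium.

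Promoter sequence was available for 29 of the 37 members in RefSeq (build GRCr8, a window of 300 bases that starts 250 bases before the transcription start and ends 50 bases after it). The RFX motif GTTGCC, searched on both strands, was present in at least 1 window of 12 of these 29 genes (41.4%), against 3594 of 27457 genes in the whole promoter table (13.1%). The forkhead motif TGTTTAC, also searched on both strands, was present in 3 of the 29 (10.3%), against 4.13% of all genes. The longer palindrome, GTTGCC followed after 2 bases by GGNAAC, was present in 0 of the 29 and in 0.346% of all genes. A looser version, GTTGC followed after 2 or 3 bases by GGNAAC, was added after the sequences had been read and was present in 6 of the 29 (20.7%) and in 0.998% of all genes. Both longer forms were searched on both strands and can share bases with GTTGCC. A gene can have more than 1 window, and the 29 genes had 46. Counted by window, GTTGCC was present in 34.8% of member windows and 12.2% of all windows. The shares were 8.7% and 3.78% for TGTTTAC, and 13% and 0.971% for the looser version. A match describes letters in a window and is not a bound site.

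Of the promoters below, Dnai2 and Dnai1 belong to partner chains of the outer dynein arm whose counts are compared within each rat further on, Cfap44 to a called gene, and Tekt1 to a gene with the RFX motif in the other orientation. The windows lie at chr10:100258772-100259071 on the plus strand for Dnai2, chr5:61525829-61526128 on the plus strand for Dnai1, chr11:69789856-69790155 on the minus strand for Cfap44 and chr10:57479072-57479371 on the minus strand for Tekt1. Each is written 5′ to 3′ along the gene, and capitals mark the RFX motif, GTTGCC or its reverse complement GGCAAC.
Dnai2: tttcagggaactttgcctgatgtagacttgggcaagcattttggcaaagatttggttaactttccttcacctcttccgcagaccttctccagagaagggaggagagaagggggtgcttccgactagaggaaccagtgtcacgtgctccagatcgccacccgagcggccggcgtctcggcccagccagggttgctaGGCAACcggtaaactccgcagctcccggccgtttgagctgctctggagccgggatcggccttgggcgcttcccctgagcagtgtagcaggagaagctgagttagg
Dnai1: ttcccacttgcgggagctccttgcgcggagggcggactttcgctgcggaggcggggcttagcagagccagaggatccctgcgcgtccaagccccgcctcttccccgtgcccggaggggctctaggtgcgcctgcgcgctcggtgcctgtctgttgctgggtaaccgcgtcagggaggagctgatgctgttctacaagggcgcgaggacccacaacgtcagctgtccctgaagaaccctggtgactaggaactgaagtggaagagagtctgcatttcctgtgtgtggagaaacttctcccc
Cfap44: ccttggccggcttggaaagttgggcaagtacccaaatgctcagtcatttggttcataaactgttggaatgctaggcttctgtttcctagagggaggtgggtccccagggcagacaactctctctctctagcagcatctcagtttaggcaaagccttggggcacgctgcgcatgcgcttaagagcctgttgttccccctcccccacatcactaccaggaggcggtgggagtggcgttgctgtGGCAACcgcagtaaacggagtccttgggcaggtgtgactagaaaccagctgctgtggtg
Tekt1: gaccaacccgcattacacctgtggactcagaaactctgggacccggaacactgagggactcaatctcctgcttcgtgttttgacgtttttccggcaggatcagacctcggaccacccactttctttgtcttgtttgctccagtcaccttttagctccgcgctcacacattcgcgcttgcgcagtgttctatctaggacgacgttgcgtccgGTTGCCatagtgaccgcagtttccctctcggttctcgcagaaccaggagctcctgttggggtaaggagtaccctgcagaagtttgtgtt
Counted from the transcription start, the RFX motif begins at position -55 in Dnai2, -9 in Cfap44 and -39 in Tekt1. The Dnai1 window has no GTTGCC on either strand, but it does have 1 of the looser pairs, as do those of Dnai2 and Cfap44.

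Library totals were 9917387 to 14735245 counts in CNC rats and 8693259 to 16603697 in air rats. Levels are given as CPM, which are counts scaled to a common library size with edgeR's TMM factors. CPM is not divided by gene length, so it compares 1 gene between rats and not 1 gene with another. Heart muscle transcripts summed to 13.1 to 126 CPM in CNC rats and to 12.7 to 431 CPM in air rats, with air rats 4 and 5 highest at 431 and 321 CPM. Of 14 tested core clock genes, 7 were higher and 5 lower in CNC rats by the same test, and times of day of collection were not given in the labels. The part of either in the results below was not tested beyond the fits that carry them as covariates. The clock covariate, the mean scaled log2 CPM of the clock genes, ran from -0.516 to 0.112 in air rats and from -0.0754 to 0.399 in CNC rats. It thus largely followed the groups. Where a call was lost with this covariate, clock and exposure cannot be told apart.

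The defining genes of ciliated cells were well covered in both groups. Foxj1 had 3568 counts over the CNC rats and 3494 over the air rats. Of ciliated cell genes outside the rule, Ccdc153 had 2999 and 2564 counts in CNC and air rats, Tmem212 had 710 and 646, Sntn, an apical protein of the cilium, had 700 and 604, and Hydin, of the central pair, had 3782 and 3781. Dnah5, an outer arm heavy chain, had 34 counts over the CNC rats and 46 over the air rats and did not reach the filter, beside a row named Dnah5-2 with 1442 and 1428 counts.

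Most axoneme genes did not pass the test for a difference between CNC and air lungs. Tubb4b and Cfap44 rose in CNC rats and Tppp3 and Fam183b fell, so 4 of the 32 tested members (12.5%) were called by edgeR's quasi-likelihood test at a Benjamini-Hochberg adjusted p under 0.05 over all 15019 tested genes. Among all tested genes 24.6% were called, 13.2% higher and 11.4% lower in CNC rats. The median log2 fold change was 0.0083 over the 32 members and -0.0026 over all tested genes, with 17 members above 0 and 15 below. The median standard error of a log2 fold change was 0.14 for members and 0.068 for all tested genes, so this comparison resolved a member less finely than a typical lung gene. In bulk lung, fewer ciliated cells and less RNA per ciliated cell cannot be told apart.

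**Figure D1:**
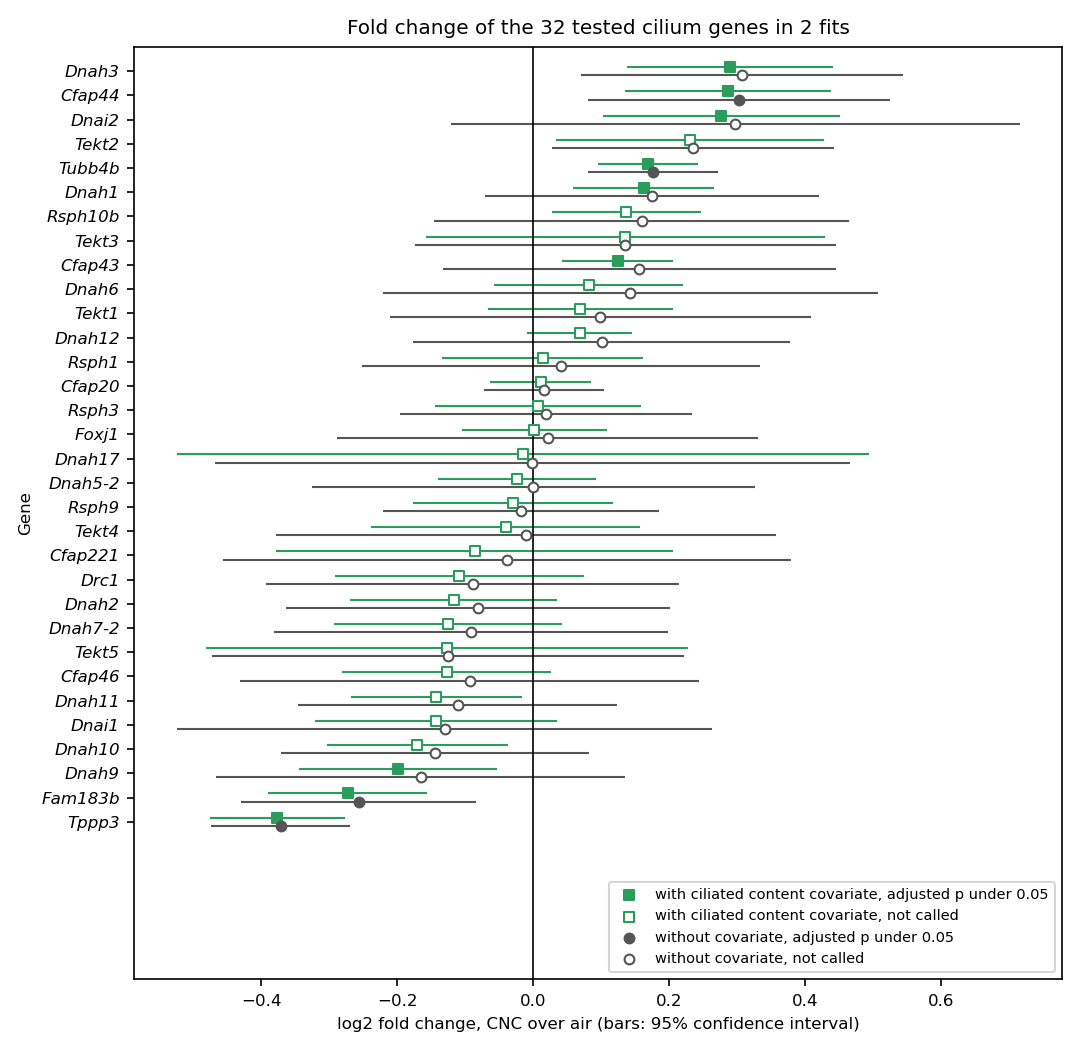
Log2 fold change of CNC over air for each of the 32 tested genes, with 95% confidence intervals. Circles are the comparison without a covariate and squares the one that carries a ciliated content covariate, and filled symbols have an adjusted p under 0.05. In the comparison without the covariate 4 genes are filled, Cfap44 and Tubb4b on the right and Fam183b and Tppp3 on the left, and with it 9 are filled.

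Foxj1, the regulator of the programme, showed no difference that could be resolved. Its level was 34.8, 45.9 and 61.6 CPM (lowest, median and highest) in CNC rats and 36, 44.1 and 65.2 CPM in air rats, and the groups overlapped almost throughout. The log2 fold change was 0.022 ± 0.15 (SE), with a 95% interval of -0.29 to 0.33 and an adjusted p of 0.943 by edgeR.

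Tppp3, a tubulin polymerisation promoting protein abundant in ciliated cells, had the clearest difference among the members. It ranged from 419 to 489 CPM in CNC rats with a median of 446, and from 521 to 628 CPM in air rats with a median of 583. Every CNC rat lay below every air rat. Its log2 fold change was -0.37 ± 0.05 (SE; edgeR adjusted p = 4.75e-05), which is 1.29-fold lower in CNC rats. It was the only 1 of the 32 tested members whose groups did not overlap, against 11.5% of all tested genes. The difference kept its call in each of the 24 alternatives, which included leaving out each rat. The ratio of its highest to its lowest rat was 1.17 within CNC rats and 1.20 within air rats. The medians over the members were 1.8 and 1.52, so Tppp3 varied less between rats than most members. How much of its RNA came from ciliated cells was not tested.

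Tubb4b, the beta-tubulin isotype of ciliary microtubules, which other cells also express, moved the other way. It ranged from 276 to 327 CPM in CNC rats with a median of 291, and from 249.6 to 281 CPM in air rats with a median of 260. Of the CNC rats, 1 lay within the air range and the others above it. The log2 fold change was 0.18 ± 0.04 (SE; edgeR adjusted p = 0.00925), a 1.13-fold higher level in CNC rats, and the call was lost only with core clock genes as a covariate (adjusted p = 0.311).

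**Figure D2:**
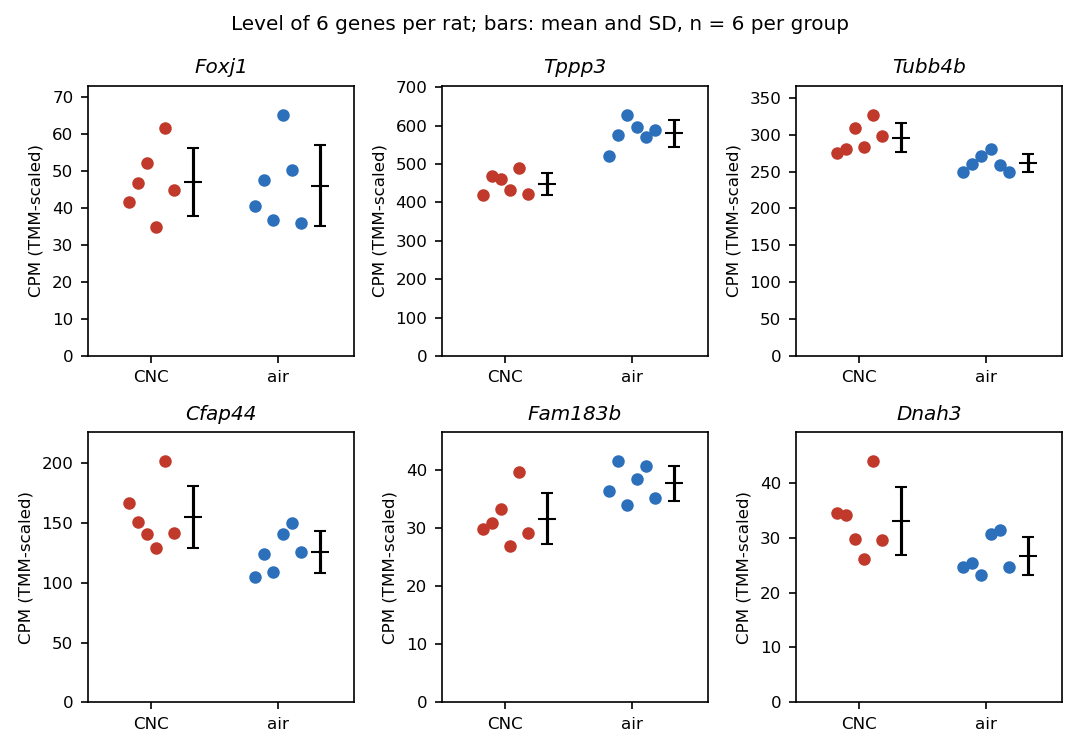
CPM of selected members in each rat on a linear axis from 0, with CNC rats left and air rats right; the bars show the mean and SD of the 6 rats. Every CNC point for Tppp3 lies below every air point, whereas the points for the other genes overlap between the groups.

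Cfap44, part of the tether that links an inner dynein arm to its doublet, ranged from 129 to 202 CPM in CNC rats with a median of 146. In air rats it ranged from 105 to 150.04 CPM with a median of 125. The groups overlapped, and the log2 fold change was 0.30 ± 0.10 (SE; edgeR adjusted p = 0.0448), a 1.23-fold higher level. This call was lost in 7 of 12 comparisons that left out 1 rat (adjusted p up to 0.100), with library size alone (0.0673), with upper quartile scaling (0.0556) and with the clock covariate (0.181). Cfap43, which works in the same tether, had 56.3, 77.9 and 109 CPM (lowest, median and highest) in CNC rats and 58.9, 67.2 and 87.7 CPM in air rats, with a log2 fold change of 0.16 and an edgeR adjusted p of 0.453.

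Of the 7 tested doublet inner protein genes, Fam183b fell and 6 did not pass the test. Fam183b, listed by RefSeq under the name Cfap144, ranged from 27.0 to 39.7 CPM in CNC rats with a median of 30.4, and from 34.0 to 41.5 CPM in air rats with a median of 37.5. All CNC rats but 1 lay under the air range. The log2 fold change was -0.26 ± 0.08 (SE; edgeR adjusted p = 0.030), and it was lost in 7 of 12 comparisons that left out 1 rat (adjusted p up to 0.0818), with air rats 4 and 5 left out (0.101) and with the clock covariate (0.469). Tekt2, a tektin of the doublet wall, had 22.2, 26.3 and 29.6 CPM in CNC rats and 17.3, 21.8 and 26.3 CPM in air rats (lowest, median and highest), with a log2 fold change of 0.24 and an edgeR adjusted p of 0.0938. Tekt2 passed as higher in 2 of 12 comparisons that left out 1 rat and in 2 of 12 other alternatives. Tekt1 averaged 15.6 ± 3.4 CPM in CNC rats and 14.5 ± 2.7 CPM in air rats (SD, n = 6 each), and the log2 fold changes of Tekt3, Tekt4, Tekt5 and Cfap20 ran from -0.13 for Tekt5 to 0.14 for Tekt3.

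No outer arm dynein chain passed the test among the 5 tested. Dnah9 and Dnah11 are heavy chains of this arm, which makes most of the force of the beat. Dnah9 had 21.3, 32.7 and 44 CPM (lowest, median and highest) in CNC rats and 29.6, 36 and 43.8 CPM in air rats, with a log2 fold change of -0.17 (edgeR adjusted p = 0.441). Dnah11 averaged 33.5 ± 6.8 CPM in CNC rats and 36.1 ± 3.2 CPM in air rats (SD, n = 6 each). Dnah17, a heavy chain known from sperm flagella, had only 93 counts over each group.

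Dnai1 and Dnai2 encode the partner intermediate chains that hold the outer arm heavy chains together. Dnai1 had 8.17, 11.3 and 15.6 CPM (lowest, median and highest) in CNC rats and 9.39, 11.2 and 20.1 CPM in air rats. Dnai2 had 10.4, 15.1 and 20.5 CPM in CNC rats and 8.08, 10.5 and 18 CPM in air rats. Both overlapped between the groups, with log2 fold changes of -0.13 for Dnai1 (edgeR adjusted p = 0.672) and 0.30 for Dnai2 (0.307). Dnai2 passed as higher in 4 of the 12 alternatives other than leaving out 1 rat, and reversed in 1 of them.

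Within a rat, however, the 2 intermediate chains were in different proportion. The count ratio of Dnai2 over Dnai1 ranged from 1.04 to 1.56 in CNC rats (1.26 ± 0.17, mean ± SD, n = 6) and from 0.815 to 1.01 in air rats (0.934 ± 0.077, n = 6). Every CNC rat had more Dnai2 than Dnai1 counts and lay above every air rat. This pair was noticed after its values had been seen, so it is given as a description with no test. How many other pairs of members would lie apart in this way was not counted. The few other partner pairs looked at overlapped between the groups, and they are no background for this pair. Among them were Dnah9 over Dnah11 at 0.978 ± 0.11 in CNC rats and 1.01 ± 0.09 in air rats, and Rsph1 over Rsph9 at 1.05 ± 0.15 and 1.01 ± 0.12 (SD, n = 6 each).

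**Figure D3:**
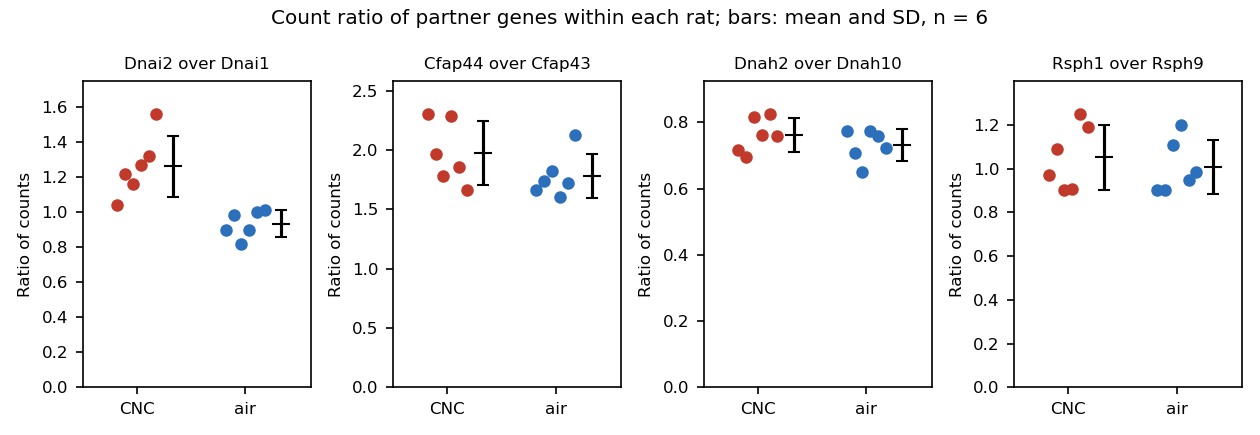
Ratio of the deposited counts of partner genes within each rat, CNC left and air right, with the mean and SD of the 6 rats beside the points. The Dnai2 over Dnai1 ratio lies between 1.04 and 1.56 in CNC rats and between 0.815 and 1.01 in air rats, while the other pairs overlap.

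None of the 6 tested inner arm heavy chains passed the test. Dnah3 came nearest of all uncalled members, at 26.2, 31.9 and 43.9 CPM (lowest, median and highest) in CNC rats and 23.2, 25.0 and 31.4 CPM in air rats, with a log2 fold change of 0.31 and an edgeR adjusted p of 0.0562. Every CNC rat lay above the air median, yet the ranges overlapped. Dnah12 averaged 77.0 ± 16.6 CPM in CNC rats and 71.6 ± 11.9 CPM in air rats (SD, n = 6 each), and Dnah10 26.4 ± 4.8 and 29.0 ± 3.0 CPM. Across the 6 genes the log2 fold changes ran from -0.14 for Dnah10 to 0.31 for Dnah3.

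None of the 7 tested radial spoke, regulatory complex and central pair members passed the test. Rsph1, a spoke head protein, averaged 15.8 ± 3.3 CPM in CNC rats and 15.3 ± 2.8 CPM in air rats, and Rsph9, also of the spoke head, 15 ± 1.9 and 15.2 ± 1.8 CPM (SD, n = 6 each). The 4 tested spoke genes had log2 fold changes from -0.018 for Rsph9 to 0.16 for Rsph10b, whose 95% interval ran from -0.15 to 0.46 and which passed with the club cell covariate (0.25, edgeR adjusted p = 0.043). Drc1, which anchors the nexin-dynein regulatory complex, averaged 15.7 ± 2.9 CPM in CNC rats and 16.6 ± 3.6 CPM in air rats, and the central pair genes Cfap46 and Cfap221 had log2 fold changes of -0.093 and -0.039.

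Of the members that stayed below the filter, Dnah7 had 7 counts over the CNC rats and 8 over the air rats, Dnah8 had 14 and 9, and Rsph6a had 2 and 1. Rsph4a, a spoke head protein of airway cilia, had 0 counts in CNC rats, which allows up to 0.0391 CPM over that group for counting error alone, and 2 counts in air rats. The spoke head genes Rsph1 and Rsph9 had 1193 and 1144 counts in CNC rats and 1146 and 1140 in air rats. The annotation used for counting was not given, so whether the Rsph4a row reflects the level of the gene is uncertain. The rows named Dnah5-2 and Dnah7-2 carry a copy suffix and held most counts under those names. Dnah5-2 averaged 19.1 ± 3.9 CPM in CNC rats and 19.0 ± 4.3 CPM in air rats, and Dnah7-2 17.7 ± 4.1 and 18.8 ± 2.8 CPM (SD, n = 6 each). How the counting shared reads between such copies is not given in the sources used here, so their levels, and those of Dnah5 and Dnah7, are uncertain.

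Within each group most members were high or low in the same rats. Beside this spread the groups overlapped for 31 of the 32, all but Tppp3. The sum over 13 dynein rows ranged from 263 CPM in CNC rat 4 to 499 CPM in CNC rat 5, with a mean of 364 ± 78 CPM in CNC rats, and from 299 to 429 CPM in air rats, with a mean of 354 ± 55 CPM (SD, n = 6 each). CNC rat 5 was the highest CNC rat for 28 of the 32 tested members and CNC rat 4 the lowest for 25. Air rat 4 was the highest air rat for 21 and air rat 5 for 7, while air rats 3 and 6 were the lowest for 13 and 12. The median ratio of the highest to the lowest rat was 1.8 within CNC rats and 1.52 within air rats.

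**Figure D4:**
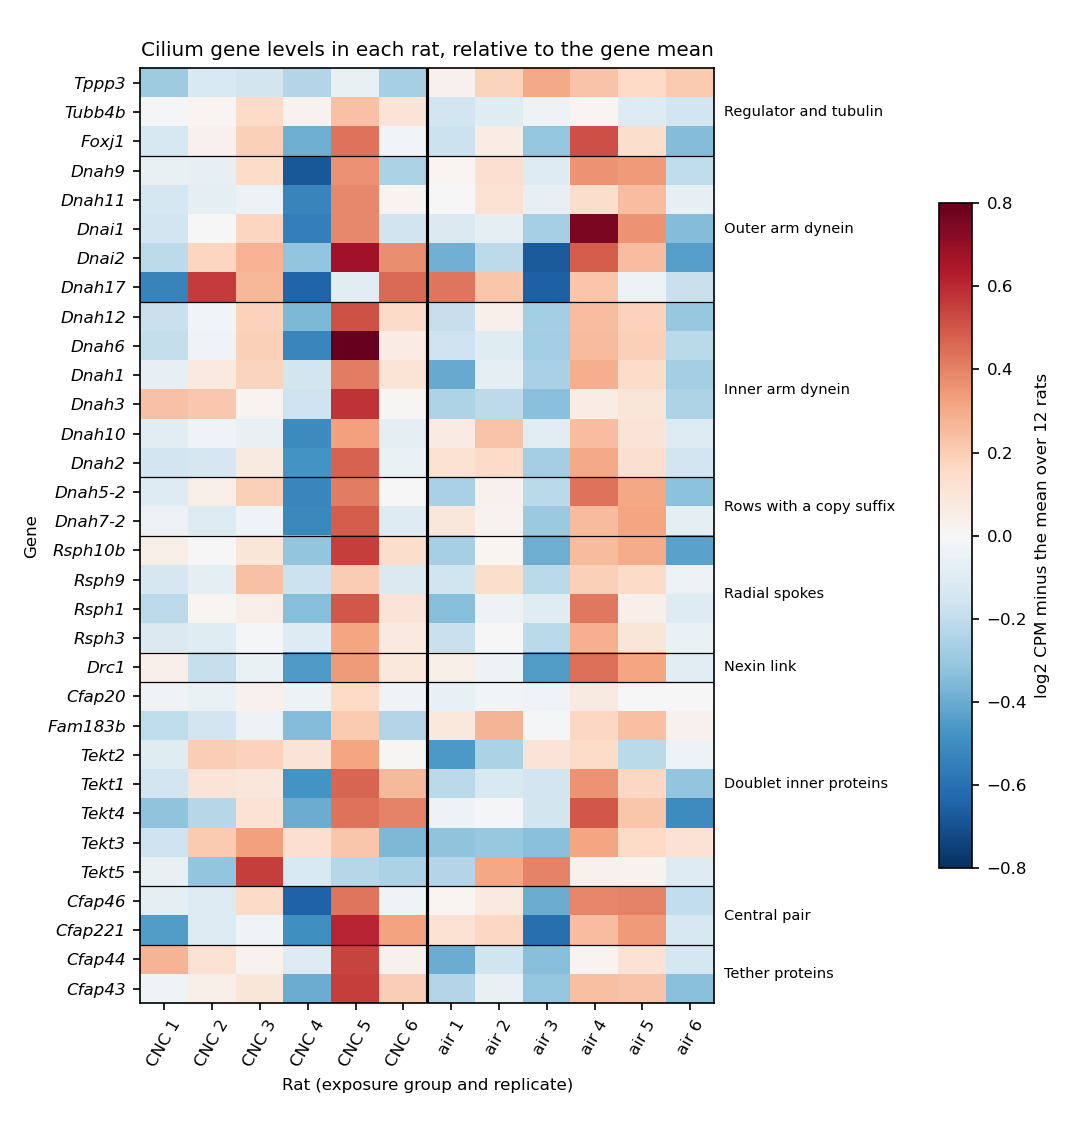
Log2 CPM of each tested member in each rat relative to the mean of all 12 rats for that gene, CNC rats left and air rats right, genes grouped by role. CNC rat 5 is the highest CNC rat for 28 of the 32 genes and CNC rat 4 the lowest for 25, and air rat 4 is the highest air rat for 21.

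Ciliated cell genes that the rule did not name varied in the same rats. Of 58 such tested genes, taken from lists of docking, nexin link, central pair, doublet and ciliated marker genes, CNC rat 5 was the highest CNC rat for 47 and CNC rat 4 the lowest for 40, and air rat 4 was the highest air rat for 36. Their summed level was 1187 ± 163 CPM in CNC rats and 1197 ± 147 CPM in air rats, and without Tuba1a, an alpha-tubulin that many cells express, 955 ± 167 CPM in CNC rats and 928 ± 143 CPM in air rats (SD, n = 6 each). Air rats 4 and 5, which were high for these genes, also had the highest heart muscle sums of all rats. With both left out, the median log2 fold change of the members was 0.17, and 5 were called higher and 1 lower, 6 of 32, against 23.6% of all genes tested without these rats. Air rats 4 and 5 were the highest air rats for 21 and 7 of the members, so leaving them out by itself lowers the air level of these genes. The part of exposure in the larger fold changes was not tested.

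**Figure D5:**
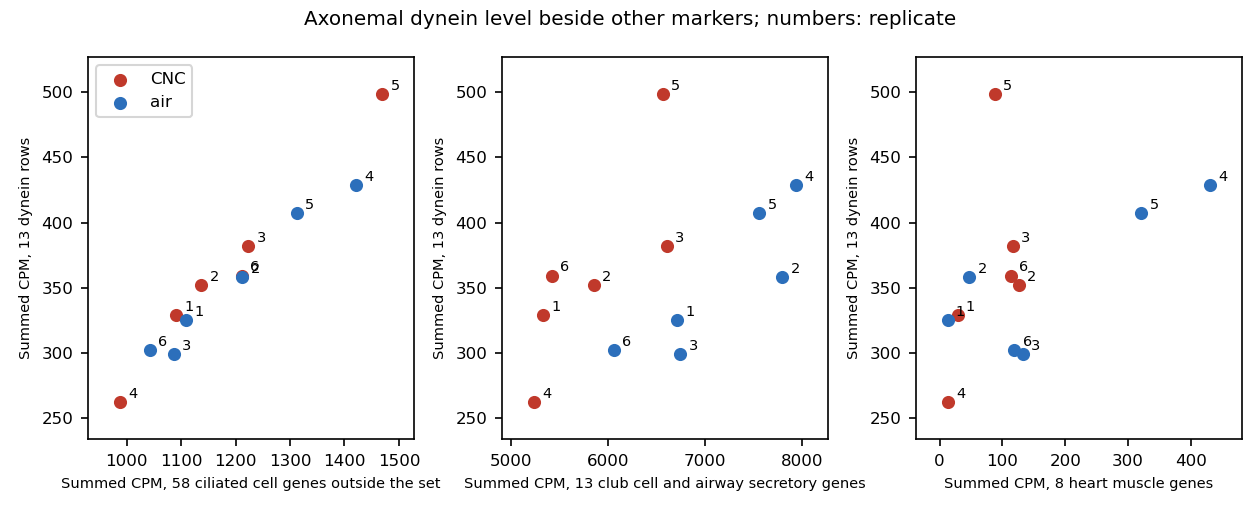
Summed CPM of the 13 dynein rows (vertical axes) against the summed CPM of 58 ciliated cell genes outside the rule, of 13 club cell and airway secretory genes and of 8 heart muscle genes, 1 point per rat, red for CNC and blue for air, with axes that do not start at 0. CNC rats 4 and 5 have the lowest and the highest dynein sum, 263 and 499 CPM, and the air rats lie between them.

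A further comparison, chosen after these values had been seen, carried the mean scaled log2 CPM of those 58 genes as the ciliated content covariate. Each member was thus compared relative to the level of these genes. They include Tuba1a and Tubb4a, both called lower in CNC rats without a covariate. Whether this matches the content of ciliated cell RNA was not tested. The ratio of a standard error in this comparison to that without the covariate had a median of 0.558 over the members and 1.00 over all tested genes. In it 9 of the 32 members (28.1%) were called, 6 higher and 3 lower in CNC rats, against 25.8% of all tested genes. All 4 earlier calls were kept in the same direction, with log2 fold changes of -0.38 for Tppp3, -0.27 for Fam183b, 0.17 for Tubb4b and 0.29 for Cfap44.

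The other 5 were dynein chains or of their tether and did not all move the same way. In this comparison 1 of the 5 tested outer arm chains was called higher and 1 lower. Of the 6 tested inner arm heavy chains, 2 were called higher and the rest were not called. Both tested tether genes were called higher, Cfap44 already without the covariate. Dnah3 (log2 fold change 0.29, edgeR adjusted p = 0.00756), Dnah1 (0.16, 0.0229), Dnai2 (0.28, 0.0213) and Cfap43 (0.12, 0.0258) passed as higher in CNC rats, and Dnah9 (-0.20, 0.0435) as lower. Leaving out each rat in turn in this comparison kept Dnah3 in 12 of 12 cases, Dnah1 in 11 of 12 (lost without CNC rat 4) and Dnai2 in 10 of 12 (lost without CNC rat 4 or air rat 2). Cfap43 was kept in 7 of 12 and Dnah9 in 4 of 12. With library size alone and the covariate, Cfap43 and Dnah1 did not pass.

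Genes of the same pathway outside the rule were also mostly uncalled. Over 7 lists of axoneme and ciliated cell genes, 0 of 78 tested genes rose and 2 fell by edgeR's test (2.56%, against 24.6% of all tested genes). They were Tuba1a (log2 fold change -0.22 ± 0.04 SE, adjusted p = 0.000372) and Tubb4a (-0.38 ± 0.13, 0.0395), a beta-tubulin known mainly from the nervous system. The median log2 fold change of the 78, among which Dynlrb2 stood in 2 of the lists, was 0.023. With the ciliated content covariate 7 of the 78 were called higher and 3 lower, but 58 of the 78 make up that covariate. Without it none of 13 dynein assembly factors, 5 docking genes, 8 light chain genes, 9 nexin link genes, 8 central pair genes or 18 doublet genes passed.

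Of 9 tested genes of the multiciliated cell programme, 2 rose and 1 fell (33.3%, against 24.6% of all tested genes). Ccno, a cyclin-like protein needed to make the many basal bodies of these cells, averaged 4.28 ± 1.8 CPM in CNC rats and 1.6 ± 0.63 CPM in air rats (SD, n = 6 each; log2 fold change 1.40 ± 0.28 SE, edgeR adjusted p = 0.00187). Plk4, the kinase that starts centriole duplication in dividing cells too, had a log2 fold change of 0.46 (adjusted p = 0.0279), and Rfx2, a partner of Foxj1, one of -0.29 (0.0319). Of 21 intraflagellar transport genes, 1 rose (4.76%), Ttc21b, a subunit of the retrograde complex, at 46.4 ± 3.3 CPM in CNC rats and 32.7 ± 2.0 CPM in air rats (log2 fold change 0.51 ± 0.05 SE, adjusted p = 8.90e-06). The calls of Tubb4a, Plk4 and Rfx2 were lost in 7, 5 and 9 of 12 comparisons that left out 1 rat (adjusted p up to 0.102, 0.0619 and 0.0751). With the clock covariate the calls of Ccno, Plk4, Rfx2 and Tubb4a were all lost (adjusted p = 0.0922, 0.0952, 0.247 and 0.121). Plk4 and Rfx2 also lost theirs with air rats 4 and 5 left out (0.0620 and 0.0981). So did Rfx2 with the heart muscle covariate (0.0532) and Tubb4a with no filter (0.0579).

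Of 13 tested club cell and airway secretory genes, 2 rose and 4 fell (46.2%, against 24.6% of all tested genes), and their summed level was 5838 ± 618 CPM in CNC rats and 7138 ± 742 CPM in air rats (SD, n = 6 each). Scgb1a1, the main club cell secretory protein, fell (log2 fold change -0.27 ± 0.08 SE, edgeR adjusted p = 0.0159), a call lost with air rats 4 and 5 left out (0.0684) and with the clock covariate (0.256). So did Cyp4b1, a club cell oxidase (-0.64 ± 0.05, 5.20e-07), while Cldn10, a tight junction claudin, rose (1.11 ± 0.10, 3.28e-06). With club cell genes as a covariate 8 members were called higher and 2 lower, 10 of 32, against 25.8% of all tested genes in that comparison. This covariate is made of the same 13 genes, some of which differed between the groups. Calls made with it need not be a comparison at equal airway content. The part of club cells in the ciliated gene values was not tested further.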

How the data were processed

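Whole-lung RNA of 12 rats was sequenced from stranded poly(A) libraries amplified by 12 PCR cycles, per the labels' protocols. The tools listed in the submitters' processing notes, with no role for any, are HTSeq 0.11.2, SAMtools 1.8, HISAT2 2.1.0, Trimmomatic 0.35, bcl2fastq 2.19 and Cufflinks. The authors deposited raw counts per gene in a table named for the Rnor6 build, and neither annotation nor strand setting was given in the sources used here. Groups came from the labels, and no library pair differed by less than sampling noise (chi-square per degree of freedom 2.69 to 8.36 over 30 pairs within groups).

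Genes were filtered with filterByExpr (minimum count 10, minimum total 15), which left 15019, scaled by TMM and tested with edgeR 4.0.16 (R 4.3.3; quasi-likelihood, 2-sided, adjusted p under 0.05). The standard error is the log2 fold change over the root of F. Alternatives used DESeq2 1.42.0, limma 3.58.1, other scalings, no filter, covariates and left-out rats. A covariate is the mean scaled log2 CPM (prior count 2) of a gene list. The tests were checked on simulated counts. The members, gene lists and pathway lists were chosen with earlier results of these data known. Named genes are Foxj1, Tppp3, Tubb4b, Fam183b, a panel set by role, called members, and up to 3 called genes a list and direction; others are named as having been seen. Promoters came from RefSeq tables (35 members matched an entry, 1 of them by synonym). Intervals of a log2 fold change were built from its standard error, so they include the spread between rats. A floor covers counting error only and is 3 counts over the group. P-values set the difference between the groups against the spread between rats. They treat rats as independent, although rats were housed 3 to a cage.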

Additional observations from a re-analysis of the deposited data

Results flagged for a closer look

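In 80 groups of 6 values tested for a rat far from the others, 1 value was flagged, where chance flags about 1 group in 20. Tekt5, a tektin known from sperm flagella, had 5.46 CPM in CNC rat 3. The gap from this rat to the next CNC rat was 0.764 of the range of the CNC group. Tekt5 averaged 3.63 ± 0.92 CPM in CNC rats and 3.97 ± 0.67 CPM in air rats (SD, n = 6 each), and its edgeR adjusted p was 0.638.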

How the results depend on the processing

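No paired analysis was possible because the animal numbers in the labels differ between the groups. Members called higher numbered 2 in the reported comparison, 1 with library size alone, 1 with upper quartile scaling, 8 with the club cell, 0 with the clock and 6 with the heart muscle covariate, 5 with air rats 4 and 5 left out, 6 with the ciliated content covariate, 1 at an adjusted p of 0.01, and 1 to 4 when 1 rat was left out (4 without air rat 4). Members called lower numbered 2, and 1 with the clock covariate, with air rats 4 and 5 left out and at an adjusted p of 0.01, and 1 to 2 when 1 rat was left out. Over all genes 3691 were called, 1566 with the clock covariate, 2146 at an adjusted p of 0.01 and 3091 to 3722 when 1 rat was left out. With the content covariate, 5 members were lower with library size alone, and 2 to 5 were lower and 4 to 7 higher when 1 rat was left out. The causes of these shifts were not tested. The median log2 fold change of the members lay between -0.076 and 0.17 in all alternatives. None of the genes that reversed was called in the reported comparison. Log2 fold changes that reversed with library size alone were -0.0031 for Foxj1, -0.0068 for Cfap20, -0.024 for Dnah5-2 and -0.0053 for Rsph3. With the clock covariate they were -0.12 for Foxj1, -0.012 for Cfap20, -0.10 for Dnah5-2, -0.084 for Tekt1, -0.15 for Rsph1, -0.039 for Dnai2, -0.12 for Rsph3 and -0.14 for Tekt3. With air rats 4 and 5 left out they were 0.085 for Cfap46, 0.021 for Dnah7-2, 0.090 for Drc1, 0.058 for Rsph9, 0.16 for Dnai1, 0.17 for Tekt4, 0.083 for Cfap221 and 0.013 for Dnah17. With the club cell and the heart muscle covariate they were 0.033 and 0.027 for Rsph9, 0.0051 and 0.0058 for Dnai1, 0.075 and 0.076 for Tekt4, 0.027 and 0.0095 for Cfap221, and 0.019 and 0.022 for Dnah17. Dnah5-2 also reversed with DESeq2 size factors (-0.0014), upper quartile scaling (-0.014), limma-voom (-0.010) and the content covariate (-0.023), and Dnah17 with no filter (0.0095) and DESeq2's Wald test (0.0019). When 1 rat was left out, the genes that reversed ranged from -0.0014 to 0.18 for Dnah12, -0.068 to 0.15 for Foxj1, -0.011 to 0.035 for Cfap20, -0.044 to 0.25 for Dnah6, -0.20 to 0.0096 for Cfap46, -0.086 to 0.10 for Dnah5-2, -0.17 to 0.0029 for Drc1, -0.068 to 0.021 for Rsph9, -0.066 to 0.15 for Rsph1, -0.22 to 0.047 for Dnai1, -0.045 to 0.085 for Rsph3, -0.10 to 0.10 for Tekt4, -0.19 to 0.049 for Cfap221 and -0.12 to 0.12 for Dnah17. Rows with few counts, such as Dnah17 with 93 counts over each group, are limited by depth.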

Other observations

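Markers of the other cell types that a piece of lung could hold were called as follows by edgeR's test. Of 6 tested basal and goblet cell genes, Spdef, a regulator of goblet cells, rose (log2 fold change 0.49 ± 0.12 SE, adjusted p = 0.00909), as did Aqp3, a water and glycerol channel of basal cells (1.25 ± 0.37, 0.0224), and the Aqp3 call was lost in 4 of 12 comparisons that left out 1 rat. The only neuroendocrine gene tested, Pcsk1, a prohormone convertase, rose (0.46 ± 0.13, 0.0187). Of 8 mesothelial genes, Krt19, a keratin that airway epithelium also makes, fell (-0.20 ± 0.05, 0.00919). Of 8 heart muscle genes 0 were called.

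Among airway secretory genes, Bpifb1, a secreted protein of the large airways, averaged 54.2 ± 21.7 CPM in CNC rats and 16.0 ± 16.3 CPM in air rats (SD, n = 6 each; log2 fold change 1.77, adjusted p = 0.0113). Its log2 fold change ran from 1.53 to 2.49 when 1 rat was left out, and the call was lost with the clock covariate (0.85, adjusted p = 0.388). Bpifa1, also a secreted airway protein, averaged 1.3 ± 1.4 CPM in CNC rats and 14.1 ± 25.5 CPM in air rats (log2 fold change -3.47, adjusted p = 0.0234). The Bpifa1 call was lost in 4 of 12 comparisons that left out 1 rat, with limma-voom and with the heart muscle covariate. With air rats 4 and 5 left out, its log2 fold change was -0.66 (adjusted p = 0.495). In the core clock list, Bhlhe41, Dbp and Per3 rose (log2 fold changes 0.98, 2.02 and 0.95), and Npas2, Arntl and Cry1 fell (-0.79, -0.96 and -0.33). The Cry1 call (adjusted p = 0.0233) was lost in 3 of 12 comparisons that left out 1 rat (adjusted p up to 0.0653). The calls of Spdef, Aqp3, Pcsk1, Krt19 and Cry1 were lost with the clock covariate (adjusted p = 0.300, 0.277, 0.0769, 0.440 and 0.780).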
